A study of Arabidopsis thaliana with 12 samples.

Results

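AT2G35390 and AT-HF (AT4G26900, also called HISN4) are nuclear genes of Arabidopsis thaliana that stand at the start and in the middle of the route from ribose to histidine. They are described side by side because earlier results of these same arrays had shown opposite differences between DCMU-treated and untreated plants. Each was measured by 1 probe whose annotation names that gene alone, probe 2391 for AT2G35390 and probe 638 for AT-HF. They are 2 of 3278 features tested, 651 of which carry a single gene name. The values of this contrast chose both genes, so their levels and differences are given as a description and without a test.

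The samples were total RNA from wild-type (WT) plants of ecotype C24. The 6 arrays of the DCMU group came from plants kept in PSII-specific light, which favours photosystem II, and given DCMU, a herbicide that stops electron transfer out of photosystem II. The 6 arrays of the untreated group came from plants in the same light with no DCMU. The labels name no tissue, age or dose, and do not say whether numbered samples came from separate plantings. Levels are the authors' scaled spot intensities, a linear unit with no background value beside it.

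Ribose-phosphate diphosphokinase, the enzyme of AT2G35390, joins ribose 5-phosphate and the diphosphate of ATP to make phosphoribosyl pyrophosphate (PRPP). PRPP is the activated sugar from which plants build purine and pyrimidine nucleotides, NAD, tryptophan and histidine. Histidine synthesis, which in plants runs in the plastid, opens with the joining of PRPP to ATP. AT-HF is a later enzyme of that pathway, a fused glutamine amidotransferase and cyclase that closes the imidazole ring and releases AICAR, an intermediate that the purine pathway takes up again.

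Neighbouring sample numbers deviated together (numbers 1 and 2, 3 and 4, 5 and 6), so the log2 values of such neighbours were averaged, and each group is treated as 3 replicates (numbers 1-2, 3-4 and 5-6). Array totals ran from 3732 to 3768 in the DCMU group and from 3643 to 3758 in the untreated group, and the median spot from 0.632 to 0.687 in the DCMU group and from 0.596 to 0.645 in the untreated group. Of 7 marker genes of photosynthetic tissue, 4 had a probe of their own name and none of these stood at 0. Their summed level was 13.0 to 15.9 in DCMU arrays and 22.7 to 29.6 in untreated arrays, a sum made up mostly of the light-harvesting gene LHCB1.5. The other 3 markers, PSAN, PRK and SBPASE, had positive log2 changes of 0.10, 0.46 and 0.40, none past the test. The part of the markers in the differences of AT2G35390 and AT-HF was not tested. None of 4 root markers had a probe of its own name. In RNA of mixed cells, fewer cells of a type and less RNA per cell cannot be told apart.

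The AT2G35390 transcript stood higher with DCMU. Its level in the DCMU arrays numbered 1 to 6 was 0.473, 0.518, 0.472, 0.496, 0.491 and 0.461. In the untreated arrays numbered 1 to 6 it was 0.324, 0.315, 0.344, 0.427, 0.251 and 0.249. The DCMU arrays lay close together and the untreated arrays spread widely, with number 4 the highest and numbers 5 and 6 the lowest, and the lowest DCMU array was still above the highest untreated one. All 6 DCMU arrays lay above all 6 untreated arrays in 9.82% of features. The replicates averaged 0.485 ± 0.00969 with DCMU and 0.318 ± 0.0667 without (SD, n = 3 each), a 1.55-fold higher level and a log2 change of 0.63.

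The AT-HF transcript stood lower with DCMU. Its level in the DCMU arrays numbered 1 to 6 was 0.303, 0.316, 0.318, 0.383, 0.272 and 0.355. In the untreated arrays numbered 1 to 6 it was 0.558, 0.560, 0.546, 0.571, 0.502 and 0.480. The highest DCMU array, number 4, did not reach the lowest untreated array, number 6. A separation in this direction was found in 5.61% of features. The replicates averaged 0.323 ± 0.0222 with DCMU and 0.536 ± 0.0390 without (SD, n = 3 each), a 1.66-fold lower level and a log2 change of -0.73.

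**Figure D1:**
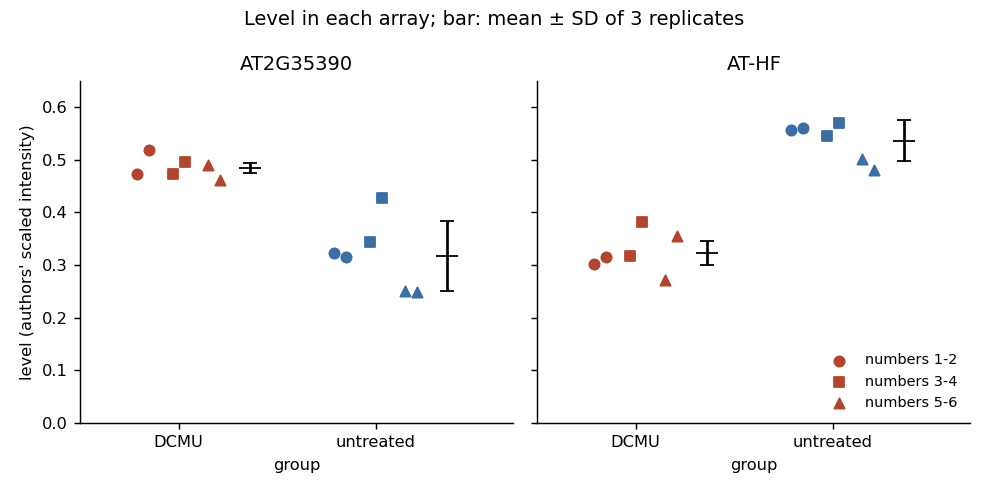
Level of AT2G35390 (left panel) and AT-HF (right panel) in each of 12 arrays, in the authors' scaled intensity units, with DCMU left of untreated; marker shapes give the sample numbers and bars the mean ± SD of 3 replicates. AT2G35390 runs from 0.461 to 0.518 with DCMU and from 0.249 to 0.427 without, AT-HF from 0.272 to 0.383 with DCMU and from 0.480 to 0.571 without.

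Taken number pair by number pair, the sign of each gene's change was the same in all 3. This follows from the separation of the arrays and is no separate result. The log2 change of AT2G35390 was 0.63 in numbers 1-2, 0.34 in numbers 3-4 and 0.93 in numbers 5-6 (SD 0.30, n = 3), which is 1.55-fold, 1.26-fold and 1.90-fold higher with DCMU. The log2 change of AT-HF was -0.85 in numbers 1-2, -0.68 in numbers 3-4 and -0.66 in numbers 5-6 (SD 0.11, n = 3), which is 1.81-fold, 1.60-fold and 1.58-fold lower with DCMU. AT-HF thus changed by a like amount in each pair, whereas the change of AT2G35390 was smallest in numbers 3-4 and largest in numbers 5-6. A signed change lowest in numbers 3-4 and highest in numbers 5-6 was seen in 32.2% of features. A change above 0 in all 3 pairs was seen in 40.1% of features and a change below 0 in all 3 in 16.5%.

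The unequal changes of AT2G35390 lay in its untreated level. Its replicate level with DCMU was 0.495, 0.484 and 0.476 in numbers 1-2, 3-4 and 5-6, while the untreated level was 0.319, 0.383 and 0.250. The SD of the log2 level over replicates was 0.03 with DCMU and 0.31 without, and the difference between these spreads was not tested. For AT-HF the same SD was 0.10 with DCMU and 0.11 without. Over both groups, AT2G35390 had a within-group SD of 0.22, at the 82.4th percentile of all features, and AT-HF one of 0.10, at the 23.3rd percentile, against a median of 0.14. Both genes had their lowest untreated level in numbers 5-6, the untreated arrays with the lowest median spots (0.605 and 0.596) and the lowest totals (3673 and 3643). The part of these array differences in the genes' levels was not tested.

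The median feature itself was 0.10 higher on the log2 scale with DCMU, and by number pair it was 0.10 in numbers 1-2, 0.03 in numbers 3-4 and 0.13 in numbers 5-6. Relative to that median, AT2G35390 was 0.54, 0.31 and 0.80 higher in the 3 pairs in the same order, and AT-HF stood at -0.95, -0.71 and -0.79. Both genes lay to their own side of the median feature in each pair, as the plot of changes by number pair shows. The smallest of these distances, 0.31 for AT2G35390 in numbers 3-4, was about as large as the gap of 0.31 between its untreated numbers 3 and 4. The genes were chosen for these changes, so the distances are a description.

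**Figure D2:**
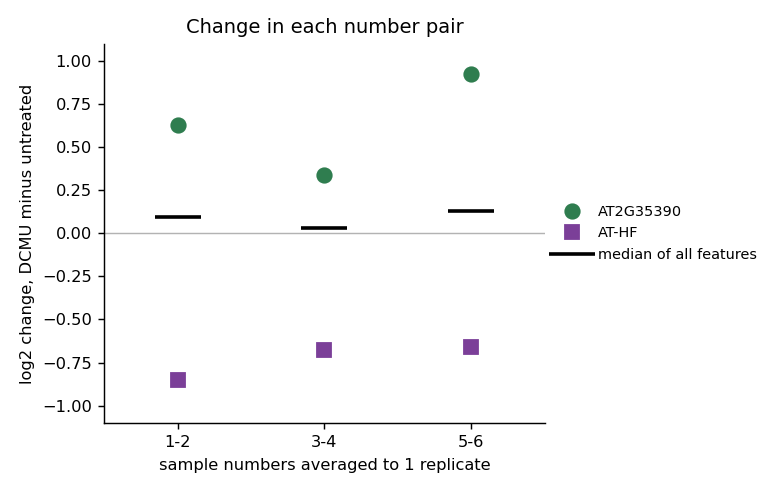
Log2 change (DCMU minus untreated) in each pair of sample numbers for AT2G35390 (circles), AT-HF (squares) and the median of all 3278 features (black bars). AT2G35390 lies at 0.34 to 0.93, AT-HF at -0.85 to -0.66 and the median at 0.03 to 0.13.

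A scaling factor that acts on a whole array cancels in the difference between the log2 changes of the 2 genes. That difference, AT2G35390 minus AT-HF, was 1.49 in numbers 1-2, 1.02 in numbers 3-4 and 1.59 in numbers 5-6, with a mean of 1.36 ± 0.30 (SD, n = 3), so the 2 transcripts moved apart 2.57-fold. Levels of different probes cannot be set against each other on these arrays, so this value concerns only how unequally the 2 transcripts changed.

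Both probes were dim. When the features of each array were ranked by level, each gene's own rank differed between the groups in the direction of its change. AT2G35390 stood between the 25.5th and the 31.2nd percentile of features in DCMU arrays and between the 9.58th and the 23.5th in untreated arrays. AT-HF stood between the 9.18th and the 19.2nd percentile in DCMU arrays and between the 34.2nd and the 40.5th in untreated arrays. No array of either gene was at the floor of 0.0669 set on low values. AT2G35390 in untreated numbers 5 and 6 lay under 0.270, the 10th percentile of all positive values, and with a floor at that height its log2 change was 0.60. With 0.5 added to every level in place of a floor, the changes were 0.27 for AT2G35390 and -0.33 for AT-HF, since that addition is as large as the levels themselves.

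Among all 3278 features, AT2G35390 had the 42nd largest positive change and AT-HF the 62nd largest negative change. Among the 651 features with a gene name they ranked 9th and 10th in their own directions. The bulk of features lay between the 2 genes, with 67.4% of all features above 0.

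**Figure D3:**
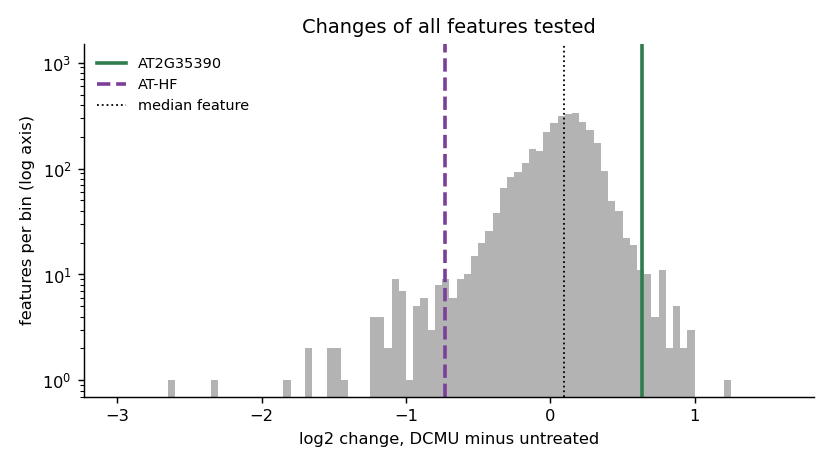
Number of features (log axis) by log2 change, DCMU minus untreated, for all 3278 features. The lines mark AT2G35390 at 0.63 (solid), AT-HF at -0.73 (dashed) and the median feature at 0.10 (dotted).

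The gap between neighbouring numbers had a median of 0.08 on the log2 scale for AT2G35390 and 0.06 for AT-HF, beside a median of 0.08 over all features. The widest gap of AT2G35390, 0.31, was between untreated numbers 3 and 4, and the widest of AT-HF, 0.38, between DCMU numbers 5 and 6. Both were smaller than the gene's mean change. The gap of 0.31 was, however, close to the change of AT2G35390 in numbers 3-4, which was 0.34.

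The genes around these enzymes were sparsely covered. Of 101 loci in 9 lists (PRPP synthesis, histidine, purine, pyrimidine, tryptophan and NAD synthesis, base salvage with PRPP, the pentose phosphate pathway, and glutamine and glutamate synthesis), 8 had a probe of their own name, AT2G35390 and AT-HF included. Tryptophan, NAD, pyrimidine and glutamine synthesis had none, and UPP (uracil phosphoribosyltransferase, which salvages uracil with PRPP) was listed at 0 on 11 of 12 arrays and could not be tested. That left 5 other genes, among them PRK, which is also counted among the photosynthetic markers. None of the 5 passed limma's moderated test at an adjusted p of 0.05 (Benjamini-Hochberg over all features), beside 5.09% of all features. At an unadjusted p under 0.05 there were 2 of 5, beside 24.5% of all features. All 5 had positive changes, as did 67.4% of all features and 72.5% of those with a gene name. The median of the 5 was 0.32, against 0.10 over all features and 0.12 over those with a gene name.

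Another PRPP synthase of the same family, AT2G44530, was measured beside AT2G35390. Its level had a lowest, median and highest value of 0.269, 0.313 and 0.354 in DCMU arrays and of 0.223, 0.271 and 0.304 in untreated arrays. The arrays of the groups overlapped, although the replicate averages did not; all 3 DCMU replicates lay above all 3 untreated ones in 21.9% of features. It had a log2 change of 0.21 with an adjusted p = 0.287 in limma's test (95% interval -0.05 to 0.48). The value is smaller than that of AT2G35390, but the difference was not tested because the contrast chose AT2G35390. All 3 number pairs had positive changes, as in 40.1% of features, with values of 0.25, 0.10 and 0.29 in numbers 1-2, 3-4 and 5-6. The lowest array of AT2G44530 in each group lay under 0.270, the 10th percentile of positive values. With a floor at that height its log2 change was 0.14.

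No other histidine enzyme had a probe of its own name. Probes 301 and 1473 were each annotated to the same pair of loci, AT4G14910 (HISN5B) and AT3G22425 (IGPD), the genes of imidazoleglycerol-phosphate dehydratase, which acts directly after AT-HF in the pathway. The probes do not say which of these loci they measured. They were added to the comparison after the data were seen. Probe 301 had a lowest, median and highest level of 0.959, 1.11 and 1.63 in DCMU arrays and of 0.901, 0.993 and 1.26 in untreated arrays. Its log2 change was 0.20 (95% interval -0.15 to 0.55; limma, adjusted p = 0.435). Probe 1473 ran from 0.250 to 0.395 in DCMU arrays and from 0.260 to 0.376 in untreated arrays, and its change on the log2 scale was 0.11, with an adjusted p = 0.652 in limma's test (95% interval -0.21 to 0.42). In both probes the groups overlapped and neither passed the test. Their changes had opposite signs between number pairs: in numbers 1-2, 3-4 and 5-6 they were 0.41, -0.12 and 0.30 for probe 301 and 0.16, -0.15 and 0.31 for probe 1473.

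Of the pentose phosphate list, 3 genes were measured and none passed. AT5G44520 is of the ribose 5-phosphate isomerase family. Its lowest, median and highest level was 0.409, 0.498 and 0.562 in DCMU arrays and 0.345, 0.395 and 0.424 in untreated arrays. The arrays of the groups overlapped, but all 3 DCMU replicates lay above all 3 untreated ones, as in 21.9% of features. The log2 change of AT5G44520 was 0.32 (95% interval 0.07 to 0.57, adjusted p = 0.131 by limma). AT1G12230, of the transaldolase family, was very dim and stood 0.35 higher on the log2 scale (-0.00415 to 0.70; adjusted p = 0.207 by limma), and its change was 0.74, -0.00127 and 0.30 in numbers 1-2, 3-4 and 5-6. Without untreated numbers 3-4 it was 0.53 (limma, adjusted p = 0.0327), without untreated numbers 1-2 it was 0.18 (limma, adjusted p = 0.499), and with the floor at the 10th percentile all its values stood at the floor. Phosphoribulokinase (PRK), also counted among the photosynthetic markers, draws on the same pool of pentose phosphates for carbon fixation and does not supply PRPP. PRK stood 0.46 higher (0.11 to 0.82, adjusted p = 0.121 by limma). Its change was 0.12, 0.94 and 0.32 in numbers 1-2, 3-4 and 5-6 (SD 0.43, n = 3), and its replicates overlapped between the groups. With the number pair as a block PRK was the only 1 of the 5 genes to pass (limma, adjusted p = 0.0326), beside 17.3% of all features in that fit. It did not pass when arrays were median-centred before the blocked fit (limma, adjusted p = 0.115).

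Purine synthesis takes up both PRPP and the AICAR that AT-HF releases. Its single measured gene, AT1G31220 (phosphoribosylglycinamide formyltransferase), averaged 0.872 ± 0.0598 with DCMU and 0.808 ± 0.0741 without (SD, n = 3 each). Its change on the log2 scale was 0.11, with an adjusted p = 0.544 in limma's test (95% interval -0.14 to 0.36). Probes 515 and 2684, each annotated to the same pair of adenylosuccinate lyase loci (AT1G36280 and AT4G18440) and also added after the data were seen, had log2 changes of 0.32 (0.05 to 0.59; limma, adjusted p = 0.147) and 0.14 (-0.13 to 0.40; limma, adjusted p = 0.477). Their mean changes were positive, as were those of 67.4% of all features, but AT1G31220 was at -0.09 in numbers 5-6 and probe 2684 at -0.03 in numbers 3-4. Without untreated numbers 3-4 the change of AT1G31220 was 0.04.

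**Figure D4:**
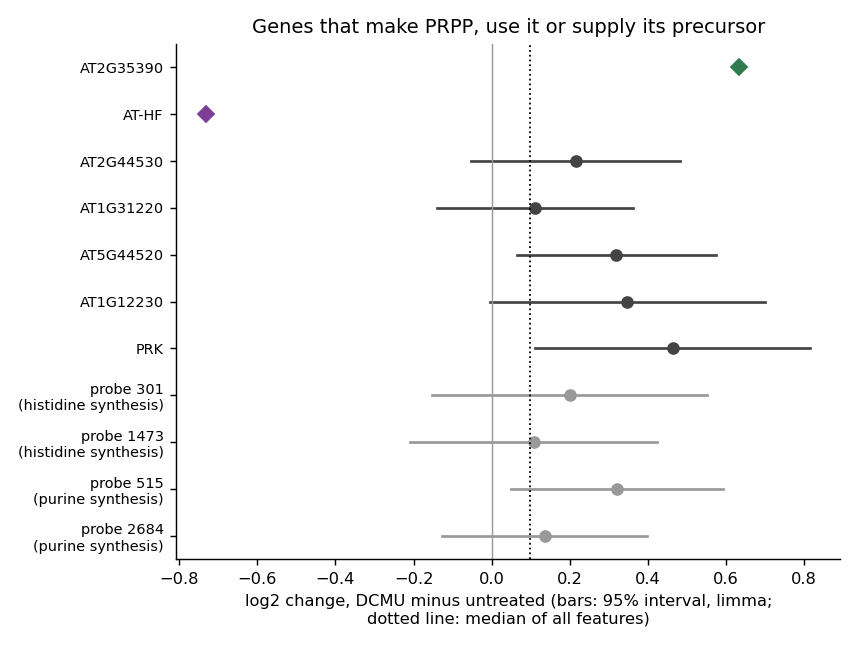
Log2 change, DCMU minus untreated, of AT2G35390 and AT-HF (diamonds, no interval, chosen by this contrast), the 5 other list genes with a probe of their own (dark) and 4 probes annotated to a pair of list loci (grey), with limma's 95% interval; the dotted line is the median of all features. AT-HF at -0.73 is the only negative value, and the other genes and probes lie between 0.11 and 0.46.

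The named genes most like each of the 2 were found by the root-mean-square difference between log2 levels over the 12 arrays, each gene centred on its own mean. Among 650 candidates, CSLA01 (a cellulose synthase-like protein) was nearest to AT2G35390, with a difference of 0.10, followed by AT3G19810 (0.11), AT5G48440 (0.12), AT3G52070 (0.13) and AT1G50880 (0.13). The median candidate was at 0.34. CSLA01 had replicate levels of 0.466, 0.482 and 0.473 with DCMU and of 0.289, 0.386 and 0.246 without, in numbers 1-2, 3-4 and 5-6. All 5 of these genes shared with AT2G35390 an untreated level that was highest in numbers 3-4 and lowest in numbers 5-6. That order, seen in 29.0% of all features, is part of the likeness they were picked for. Their log2 changes lay between 0.48 and 0.65.

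Rank for rank, the genes nearest to AT-HF had larger differences from it, but its median candidate was also further off than that of AT2G35390. AT2G39100 was at 0.13, AT1G44830 at 0.19, AT3G50130 at 0.20, AT5G11550 at 0.22 and AT5G19750 at 0.22, against a median candidate of 0.47. Their log2 changes ran from -1.08 for AT5G11550 to -0.46 for AT1G44830. AT2G39100 averaged 0.657 ± 0.0519 with DCMU and 1.05 ± 0.146 without (SD, n = 3 each), a log2 change of -0.67. The arrays of the groups did not overlap in any of the 10 genes. Among all features, 9.82% had all DCMU arrays above all untreated arrays and 5.61% had them all below. AT5G19750 was separated only barely, with a highest DCMU array of 1.02785 and a lowest untreated array of 1.02796. Its change in numbers 5-6 was -0.13. The 10 genes were picked for this likeness, so their separation is no separate result.

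**Figure D5:**
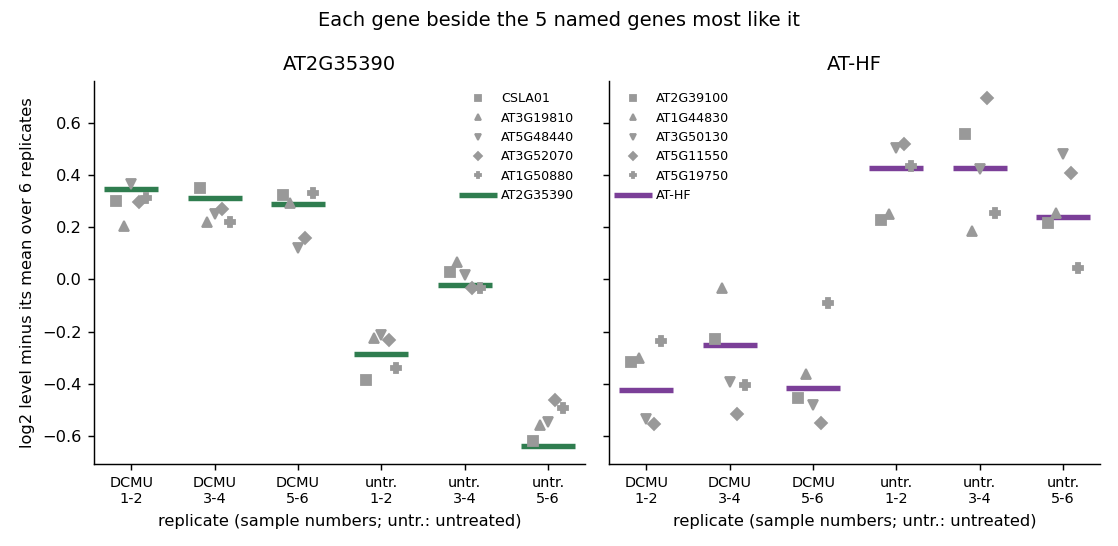
Log2 level of AT2G35390 (left) and AT-HF (right) in each replicate, drawn as coloured bars, with the 5 named genes most like each as grey markers; every gene is centred on its mean over 6 replicates, and DCMU replicates stand left of untreated ones. The markers around AT2G35390 follow its untreated order, with the highest level in numbers 3-4 and the lowest in numbers 5-6, while those around AT-HF scatter more widely.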

How the data were processed

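Each value in the deposited table is an intensity of 1 probe on 1 array, linear and, judging by near-equal totals, already scaled by the authors. How arrays were labelled, background-corrected and scaled is not given in the sources used here. Of 3439 probes, 692 were annotated to 1 gene, 870 to several and 1877 to none in the platform annotation; 690 of the 692 were found in RefSeq TAIR10.1. A floor of 0.0669, the 1st percentile of positive values, replaced anything lower; 160 probes at or under it on all arrays were left out, spots of 1 gene were averaged, and log2 was taken. Within groups, deviations of neighbouring numbers correlated at 0.36 to 0.67 and those of others at -0.58 to -0.11, partly by centring, so neighbouring numbers were averaged. Across groups, replicates of the same numbers correlated at 0.38 to 0.44, each over 0.1, so a fit with the number pair as a block was run beside the main one. The pairing comes from the data, not the labels, and p-values measure a spread that may be technical.

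The test was that of limma 3.58.1 under R 4.3.3 (lmFit, eBayes, two-sided, Benjamini-Hochberg over 3278 features), after a check on simulated data. The number of arrays limits the precision. The 2 genes, the lists and the tests were chosen with earlier results of these data known. Genes named are the 2 genes, every measured list member and the 5 most alike named genes for each. Of the photosynthetic markers, LHCB1.5 fell 2.22-fold (limma, adjusted p = 0.000912). Alternatives covered the block, scaling, floor, filter, weights, replicates and leaving out each replicate.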

Additional observations from a re-analysis of the deposited data

How the results depend on the processing

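The directions of AT2G35390 and AT-HF held in all 15 alternatives each that were run. With dimmer features left out neither was measured. In both genes the arrays of the groups did not overlap, so leaving out a replicate could not reverse a sign. The block and the filter left both changes as they were. The count of alternatives is therefore no separate support for the directions. Leaving out 1 replicate gave log2 changes of 0.47 (without untreated numbers 5-6) to 0.78 (without untreated numbers 3-4) for AT2G35390, -0.79 to -0.70 for AT-HF, and 1.26 to 1.48 for the difference between them. With 0.5 added in place of the floor the 3 values were 0.27, -0.33 and 0.60. The count of features called, 167 (63 higher, 104 lower), was 566 with the replicate block (351 higher), 502 with the block after median centring (175 higher), 110 with the floor at the 10th percentile, 102 without the filter on dim features, 359 with array weights and 1089 with all 12 arrays as replicates. It was 77 to 282 without 1 replicate: leaving out DCMU numbers 1-2 gave 77 and 5-6 gave 90, and leaving out untreated numbers 1-2 gave 82, 3-4 gave 282 and 5-6 gave 87. The cause was not tested. Of the 5 other pathway genes, 0 were called in the main comparison, 1 with the replicate block (PRK), 2 with all 12 arrays as replicates (PRK and AT5G44520) and 0 to 1 without 1 replicate (AT1G12230, without untreated numbers 3-4). With the block SBPASE, a photosynthetic marker, also passed (limma, adjusted p = 0.0279), and with the block after median centring neither it (adjusted p = 0.0607) nor PRK (adjusted p = 0.115) did. The block changed no other call among the pathway genes and markers. Over all alternatives limma's adjusted p ran from 0.00907 to 0.246 for PRK, 0.00777 to 0.309 for AT5G44520, 0.0327 to 1 for AT1G12230, 0.0699 to 0.619 for AT2G44530 and 0.242 to 0.888 for AT1G31220. With probes of several list genes counted, chosen after seeing the data, the count remained 0. Without background values, levels near the floor cannot be told from none.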
